A study of Mus musculus with 14 samples.

Results

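Xenobiotic cytochrome P450s and their 2 receptors were examined in small intestinal organoids lacking Rnaseh2b, Atg16l1 or both. The set held 10 of the 18781 genes in the table: the P450 genes Cyp3a11, Cyp3a13, Cyp3a25, Cyp2b10, Cyp2c55, Cyp2c65, Cyp2c66 and Cyp2d26, and the nuclear receptor genes Nr1i2 and Nr1i3. The genes were picked by symbol, and partly because Cyp3a11 was among the largest rises in Rnaseh2b ΔIEC organoids. Values that involve the Rnaseh2b ΔIEC libraries are therefore given below as a description, without a test of these genes. All 10 genes were above the minimum level for testing.

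P450s of families 1 to 3 are haem enzymes of the endoplasmic reticulum that oxidise drugs, dietary chemicals, steroids and fatty acids, with electrons from the reductase Por. Nr1i2 encodes the pregnane X receptor (PXR) and Nr1i3 the constitutive androstane receptor (CAR). Both receptors respond to foreign chemicals and pair with retinoid X receptors such as Rxra. They switch on P450, conjugation and transporter genes in liver and in the absorptive enterocytes of the gut. Cyp3a11, the mouse counterpart of the main human intestinal drug-oxidising P450, is a standard PXR target, and Cyp2b10 is the standard CAR target.

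Rnaseh2b encodes a subunit of RNase H2, which removes ribonucleotides from DNA, and Atg16l1 is needed for autophagy. WT organoids (4 libraries) were floxed at both genes and carried no Cre. Rnaseh2b ΔIEC (2 libraries, RNaseH2B flox/flox VillinCre+/-), Atg16l1 ΔIEC (4 libraries, ATG16L1 flox/flox VillinCre+/-) and Atg16l1/Rnaseh2b ΔIEC organoids (4 libraries, both genes floxed, VillinCre+/-) carried Cre under the Villin promoter, which is active in intestinal epithelium, so that no control carried Cre alone. All were grown untreated in Intesticult medium, the age and identity of the donor mouse of each library were not given, and the study had left out 2 further Rnaseh2b ΔIEC samples for their read counts.

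The targeted genes were lower where the labels placed them. Rnaseh2b, a log2 level of 8.54 ± 0.13 (SD, n = 4) in WT, was 7.18 ± 0.04 (n = 2) in Rnaseh2b ΔIEC and 7.81 ± 0.10 (n = 4) in Atg16l1/Rnaseh2b ΔIEC organoids. Atg16l1 was 9.46 ± 0.05 in WT, 6.92 ± 0.29 with Atg16l1 deleted and 8.39 ± 0.19 in the double knockout, Atg16l1/Rnaseh2b ΔIEC (n = 4 each), so the fall was smaller there. The enterocyte markers Sis and Fabp1 had mean log2 levels of 15.29 and 14.77. Of 9 hepatocyte markers, Serpina1a, Fgb, Fga and Tat were between -1.97 and 1.45, Apoh, Alb and Cyp2e1 were at 3.42, 5.70 and 6.005, and Ttr and Cps1 at 10.66 and 15.81, the last also a gene of enterocytes. Of 10 stromal and immune markers, 7 were between -1.33 and 2.08, among them the leukocyte gene Ptprc at 0.49, and Lyz2, Pecam1 and Vim were at 3.86, 4.37 and 7.87. Libraries 1 and 2, and 3 and 4, of a genotype deviated from its mean together, with a correlation across genes of 0.41 to 0.86 in 6 pairs, and nothing states whether the 2 libraries of a pair came from separate mice. P-values measure the spread between libraries and may be too small. The Y-linked gene Ddx3y, at 9.12 to 9.85 in some libraries and 6.04 to 6.203 in the others, split each 4-library genotype into the same pairs. It was high in WT 1 and 2, both Rnaseh2b ΔIEC libraries, Atg16l1 ΔIEC 3 and 4 and Atg16l1/Rnaseh2b ΔIEC 1 and 2. Xist, expressed in female cells, ran the opposite way, at 13.24 to 13.78 in Ddx3y-low and 7.56 to 7.80 in Ddx3y-high libraries. The classes thus have the pattern of female and male donors. The library names also give a sequencing lane: WT and Atg16l1/Rnaseh2b ΔIEC 3 and 4 were in lane 1, and all other libraries in lane 2. Genotype and lane cannot be told apart for either single knockout against WT.

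The 250 bases before the RefSeq start of each gene (GRCm38.p6) were searched on both strands for the hexamers that PXR and CAR bind with their partner, AGGTCA and AGTTCA. The upstream stretches of Cyp3a11, Cyp3a25 and Cyp2b10, which had the largest differences in Rnaseh2b ΔIEC organoids, are shown 5′ to 3′ on the coding strand, without bases in an annotated exon. Capitals mark the hexamers in either direction and, in Cyp3a11, a direct repeat of AGTTCA with 3 bases between the copies (DR3) and 1 mismatch.
Cyp3a11 (chr5:145879965-145880104, minus strand): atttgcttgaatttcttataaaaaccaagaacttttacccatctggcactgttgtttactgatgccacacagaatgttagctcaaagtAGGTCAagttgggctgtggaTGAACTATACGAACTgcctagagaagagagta
Cyp3a25 (chr5:146009619-146009868, minus strand): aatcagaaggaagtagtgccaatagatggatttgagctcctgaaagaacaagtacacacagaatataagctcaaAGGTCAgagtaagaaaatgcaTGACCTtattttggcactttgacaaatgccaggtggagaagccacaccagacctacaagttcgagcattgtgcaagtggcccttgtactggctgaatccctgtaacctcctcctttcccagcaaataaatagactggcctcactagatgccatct
Cyp2b10 (chr7:25897408-25897619, plus strand): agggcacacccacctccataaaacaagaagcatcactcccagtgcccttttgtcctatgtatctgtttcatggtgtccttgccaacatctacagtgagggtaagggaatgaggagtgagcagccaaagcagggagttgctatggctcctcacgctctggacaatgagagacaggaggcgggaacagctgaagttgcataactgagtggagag

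Counted back from the start, Cyp3a11 held AGGTCA at positions -162 to -157 and, on the opposite strand, the imperfect DR3 at -142 to -128, which takes in an AGTTCA. Cyp3a25 held AGGTCA at -176 to -171 and, on the opposite strand, at -155 to -150. The other 8 genes held neither hexamer in this window, and bases further upstream were not searched. Among 27025 promoter windows of the same length, 13.839% held AGGTCA, 11.9% AGTTCA and 0.496% a DR3 with at most 1 mismatch. Exact repeats of the hexamers with 3 bases between them were in 0.011% of all windows, with 4 bases in 0.022%, and everted with 6 bases in 0.011%, and in 0 of the 10. These letter matches are a description and not binding sites.

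The set was well expressed, but over a wide range. Per kilobase of the principal transcript, and on the linear scale, Cyp2c55, which oxidises arachidonic acid, was the most abundant, at 15546 ± 3606 in WT organoids (SD, n = 4). Cyp2c66 followed at 7805 ± 2041, then Cyp2c65 at 4652 ± 735 and Cyp2d26 at 3865 ± 171. Cyp3a13, a CYP3A enzyme of the gut, was at 2137 ± 87.8, Cyp2b10 at 2120 ± 971, Cyp3a11 at 1785 ± 312 and Cyp3a25 at 1040 ± 272. The receptors were lowest, Nr1i3 at 823 ± 80.5 and Nr1i2 at 607 ± 32.6. Neighbours among Cyp3a13, Cyp2b10 and Cyp3a11 did not differ beyond their spread. In Rnaseh2b ΔIEC organoids Cyp3a11 stood at 7918 ± 204 (n = 2), behind only Cyp2c55 at 19106 ± 966 and Cyp2c66 at 9808 ± 411.

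**Figure D1:**
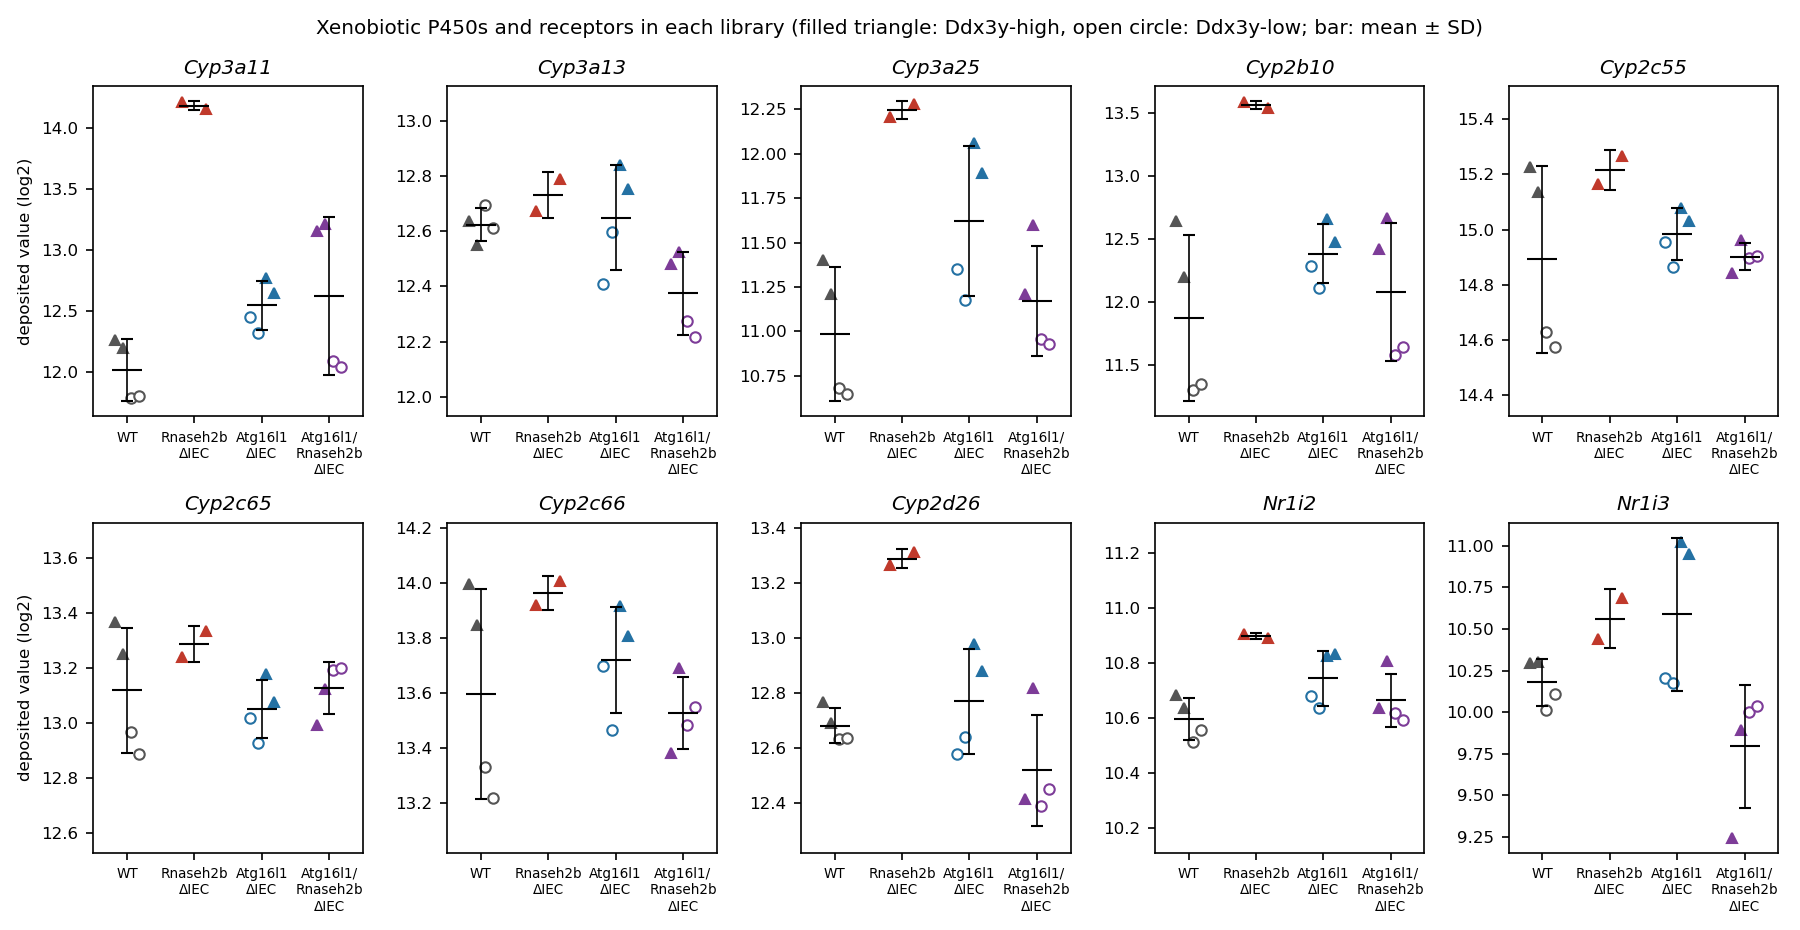
Deposited log2 value of each gene (y axis) in each of the 14 libraries, by genotype; bars give the mean ± SD, filled triangles Ddx3y-high and open circles Ddx3y-low libraries. Cyp3a11 lies between 11.79 and 13.21 in all libraries but those of Rnaseh2b ΔIEC, at 14.15 and 14.21.

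Cyp3a11 was lowest in WT and highest in Rnaseh2b ΔIEC organoids. Its log2 levels were 12.27, 12.20, 11.79 and 11.81 in WT, and 14.21 and 14.15 in Rnaseh2b ΔIEC libraries. Atg16l1 ΔIEC libraries had 12.45, 12.32, 12.77 and 12.64, and Atg16l1/Rnaseh2b ΔIEC libraries 13.15, 13.21, 12.09 and 12.04. Both Rnaseh2b ΔIEC libraries were above all others. Every Atg16l1 ΔIEC library was above every WT library, which held for 11.5% of all genes, and the double knockout split into a high and a low pair. The group means were 12.01 ± 0.25 in WT, 12.55 ± 0.20 for Atg16l1 ΔIEC, 12.62 ± 0.65 for Atg16l1/Rnaseh2b ΔIEC and 14.18 ± 0.04 in Rnaseh2b ΔIEC. The middle 2 did not differ beyond their spread. The difference between Rnaseh2b ΔIEC and WT, which helped to choose the gene, was 2.17 (SE 0.30) on the log2 scale. It was the rise of rank 2 among all genes, between the antimicrobial lectin gene Reg3a at 2.53 and the glucose-6-phosphatase gene G6pc at 2.16.

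Cyp2b10 had log2 levels of 12.65, 12.20, 11.30 and 11.35 in WT, 13.59 and 13.54 in Rnaseh2b ΔIEC libraries. They were 12.29, 12.12, 12.66 and 12.48 with Atg16l1 deleted, and 12.42, 12.67, 11.58 and 11.64 with both genes deleted. Rnaseh2b ΔIEC stood apart and the other 3 genotypes overlapped. The difference between Rnaseh2b ΔIEC and WT was 1.69 (SE 0.37), the rise of rank 7. Cyp3a25, a CYP3A gene next to Cyp3a11 on chromosome 5, had log2 levels of 11.40, 11.21, 10.68 and 10.65 in WT, 12.21 and 12.28 in Rnaseh2b ΔIEC libraries. They were 11.35, 11.18, 12.06 and 11.89 with Atg16l1 deleted, and 11.21, 11.60, 10.96 and 10.93 with both genes deleted. Its order was the same, except that Atg16l1 ΔIEC reached up to 12.06, close to Rnaseh2b ΔIEC, and its difference from WT in Rnaseh2b ΔIEC was 1.26 (SE 0.27).

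Cyp2d26, a P450 of the CYP2D family, ranged from 12.63 to 12.77 in WT, 13.26 to 13.31 in Rnaseh2b ΔIEC, 12.58 to 12.98 with Atg16l1 deleted and 12.39 to 12.82 with both deleted. It was again highest in Rnaseh2b ΔIEC organoids, by 0.61 (SE 0.12) over WT. The arachidonic acid P450s of the gut differed less: the difference between Rnaseh2b ΔIEC and WT was 0.33 (SE 0.15) for Cyp2c55, 0.37 (SE 0.19) for Cyp2c66 and 0.17 (SE 0.11) for Cyp2c65, with both Rnaseh2b ΔIEC libraries within the WT range or less than 0.05 above it. Cyp3a13 ranged from 12.55 to 12.70 in WT and from 12.67 to 12.79 in Rnaseh2b ΔIEC, a difference of 0.11 (SE 0.11). The receptor gene Nr1i2 ranged from 10.51 to 10.68 in WT and from 10.89 to 10.90 in Rnaseh2b ΔIEC, 0.30 higher (SE 0.07). Nr1i3 was 0.38 higher (SE 0.26).

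All 10 genes had a positive difference between Rnaseh2b ΔIEC and WT, with a median of 0.37 against 0.00 over the 12802 genes tested, and in 6 of the 10 the libraries did not overlap. Over all genes, 28.4% were higher without overlap, and 14.4% passed as higher. Against Atg16l1 ΔIEC, sequenced in the same lane, 8 of the 10 were higher without overlap in Rnaseh2b ΔIEC (20.4% of all genes), and Cyp3a11 differed by 1.63 (SE 0.30). With lane as a covariate, which only the Atg16l1/Rnaseh2b ΔIEC libraries can estimate, the Cyp3a11 difference from WT was 1.05 in place of 2.17, and that of Cyp2b10 0.76. Both Rnaseh2b ΔIEC libraries were Ddx3y-high, while WT held both classes. Among Ddx3y-high libraries alone, Cyp3a11 was 1.95 higher in Rnaseh2b ΔIEC than in WT, and Cyp2b10 1.14 higher. There the difference was 0.94 for Cyp3a25, 0.56 for Cyp2d26, 0.26 for Nr1i3, 0.24 for Nr1i2 and 0.14 for Cyp3a13. For Cyp2c55 and Cyp2c66 it was 0.04, and for Cyp2c65 -0.02.

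The enterocyte level also differed between genotypes. Of 15 enterocyte markers, 14 rose in Rnaseh2b ΔIEC against WT (14.4% of all genes rose), with a median log2 change of 0.95. Their mean log2 level was 12.69 to 13.32 in WT, 13.84 to 13.96 in Rnaseh2b ΔIEC, 12.97 to 13.61 with Atg16l1 deleted and 12.70 to 13.13 with both deleted. Its part in the P450 differences was not tested. In bulk RNA, more enterocytes and more RNA of a gene per enterocyte cannot be told apart. Atg16l1/Rnaseh2b ΔIEC libraries 1 and 2, with enterocyte levels of 12.82 and 13.13, had more Cyp3a11 than Atg16l1 ΔIEC libraries 3 and 4, with 13.61 and 13.42. The difference between these pairs was 0.47 for Cyp3a11. For every other gene of the set it was negative, from -0.02 for Cyp2b10 to -1.42 for Nr1i3.

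**Figure D2:**
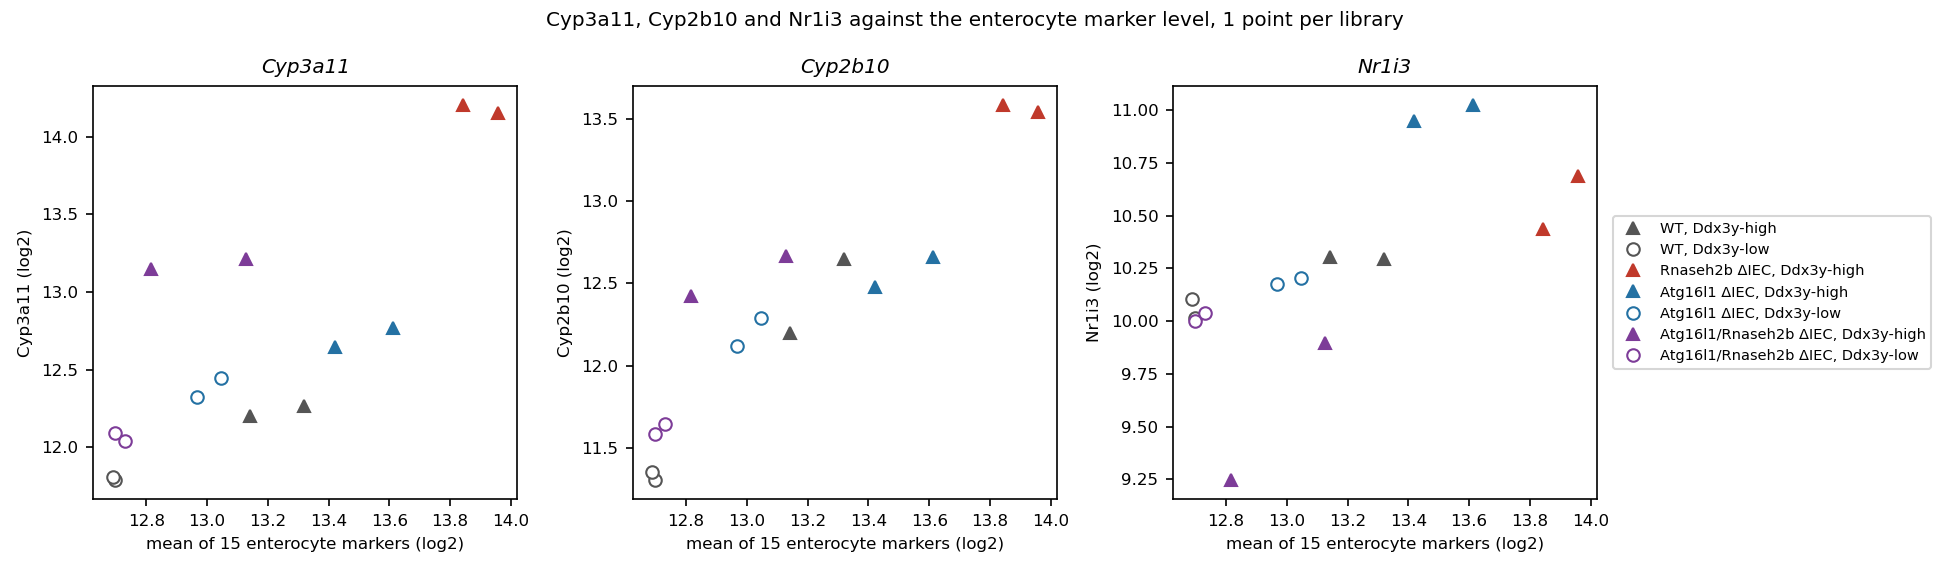
Log2 level of Cyp3a11, Cyp2b10 and Nr1i3 (y axes) against the mean log2 level of 15 enterocyte markers (x axis), 1 point per library, coloured by genotype. Both Rnaseh2b ΔIEC libraries have the highest marker level and the highest Cyp3a11 and Cyp2b10, while Nr1i3 is highest in 2 Atg16l1 ΔIEC libraries, at 11.03 and 10.95.

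The double knockout against Atg16l1 ΔIEC compares other libraries than the contrast that chose the genes. Atg16l1 was at 8.39 in the double knockout and 6.92 in Atg16l1 ΔIEC, so these genotypes differ in more than Rnaseh2b. The fit takes its variance from all 14 libraries, those of the contrast that chose the genes included. In this fit none of the 10 genes passed as higher and 2 passed as lower. With only the 8 libraries of these 2 genotypes in the fit, 0 of the 10 passed in limma. A further fit averaged the libraries of each pair, leaving 2 values in each of these genotypes, so that few differences can pass in it. Nr1i3 fell by 0.79 on the log2 scale (SE 0.21, adjusted p = 0.0159), but the call was lost with only the 2 genotypes in the fit (adjusted p = 0.0539) and with the libraries of each pair averaged (adjusted p = 0.291). Its levels were 10.20, 10.18, 11.03 and 10.95 in Atg16l1 ΔIEC, and 9.25, 9.89, 9.9998 and 10.04 in the double knockout. The 2 genotypes did not overlap (11.8% of all genes were lower without overlap), and the difference was set mainly by the high Atg16l1 ΔIEC libraries 3 and 4 and the low double knockout library 1. WT had 10.29, 10.30, 10.01 and 10.11, and Rnaseh2b ΔIEC 10.44 and 10.69. Without Atg16l1 ΔIEC library 3 or 4 the adjusted p was 0.0544 and 0.0556, and among Ddx3y-low libraries the difference was -0.17, against -1.42 among Ddx3y-high libraries. Within lane 2 it was -1.02 (adjusted p = 0.0315).

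Cyp3a13 fell by 0.28 (SE 0.09, adjusted p = 0.0362), a call also lost with only the 2 genotypes in the fit (adjusted p = 0.0922) and with pairs averaged (adjusted p = 0.348). Its levels were 12.41, 12.60, 12.84 and 12.75 in Atg16l1 ΔIEC and 12.48, 12.52, 12.27 and 12.22 in the double knockout, so that the ranges overlapped. The call was lost without Atg16l1 ΔIEC library 3 or 4 or without double knockout library 3 or 4 (adjusted p from 0.087 to 0.116). Within lane 2 the difference was -0.15 (adjusted p = 0.314).

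Over all genes 12.5% passed as lower and 12.6% as higher in this comparison, so counts of 2 lower and 0 higher among 10 genes lie near that background. The median difference was -0.22 against 0.00 over all genes. Cyp3a11 differed by 0.08 (SE 0.24, adjusted p = 0.841), with a 95% interval from -0.45 to 0.60. Its double knockout pairs went opposite ways, at 0.47 above Atg16l1 ΔIEC among Ddx3y-high and 0.32 below it among Ddx3y-low libraries. Within lane 2, which holds 2 double knockout libraries, both Ddx3y-high, Cyp3a11 was 0.63 higher (adjusted p = 0.00811) and was the 1 gene of the 10 called higher, where 12.1% of all genes were. Lane and Ddx3y class cannot be told apart within the double knockout. Cyp2d26 (-0.25, adjusted p = 0.0746), Cyp3a25 (-0.45, adjusted p = 0.146), Cyp2b10 (-0.31, adjusted p = 0.47) and Cyp2c66 (-0.20, adjusted p = 0.36) did not pass. For Nr1i2, Cyp2c55 and Cyp2c65 the difference was -0.08, -0.08 and 0.08, with intervals between -0.35 and 0.28.

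**Figure D3:**
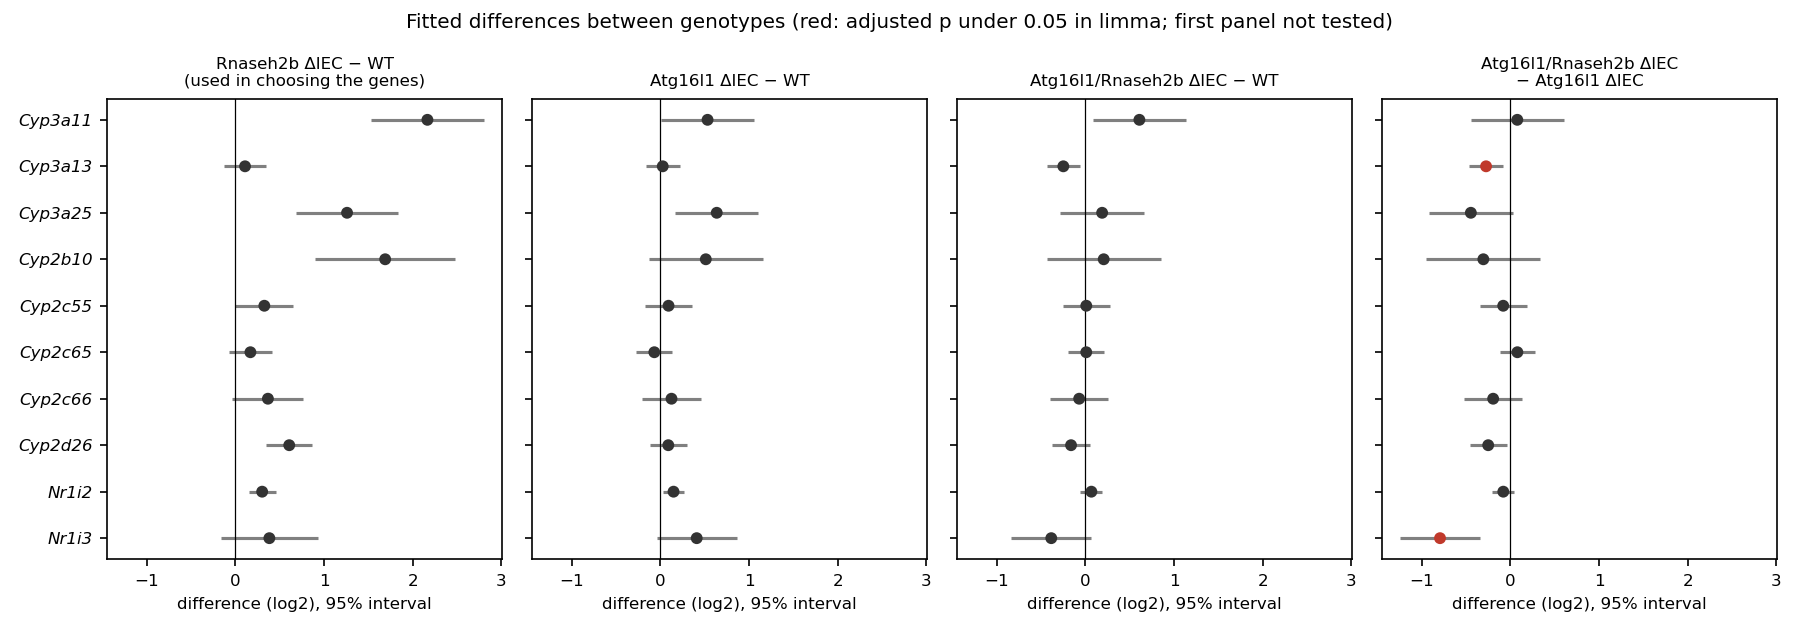
Fitted log2 difference (x axis) with its 95% interval for each gene, in 4 comparisons; red marks an adjusted p under 0.05 in limma, and the left panel was not tested. Nr1i3 at -0.79 and Cyp3a13 at -0.28, in Atg16l1/Rnaseh2b ΔIEC against Atg16l1 ΔIEC, are the 2 red points.

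Against WT, whose libraries also served in choosing the genes, neither Atg16l1 ΔIEC nor Atg16l1/Rnaseh2b ΔIEC organoids had a gene of the set past the threshold. In Atg16l1 ΔIEC, 0 of 10 passed by limma (8.73% of all genes passed as higher and 10.4% as lower), and 3 had an unadjusted p under 0.05. Those were Cyp3a25, 0.63 higher (SE 0.22, adjusted p = 0.0571), Nr1i2, 0.15 higher (SE 0.06, adjusted p = 0.0869), and Cyp3a11, 0.53 higher (SE 0.24, adjusted p = 0.14). With lane as a covariate Cyp3a11 was -0.58 (adjusted p = 0.0686 in limma). Only the double knockout libraries can estimate that covariate, and in them lane and Ddx3y class cannot be told apart. With Ddx3y class as a covariate, added after the pairs of libraries had been seen, 4 of the 10 passed as higher, namely Cyp3a11, Cyp3a25, Cyp2b10 and Nr1i2, where 12.5% of all genes passed as higher under that setting.

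In Atg16l1/Rnaseh2b ΔIEC against WT, 0 of 10 passed (8.10% of all genes passed as higher and 8.01% as lower), and 2 had an unadjusted p under 0.05. Cyp3a11 was 0.61 higher (SE 0.24, adjusted p = 0.101) and Cyp3a13 differed by -0.25 (SE 0.09, adjusted p = 0.0687). Cyp3a13 did not overlap between these genotypes, with all double knockout libraries at 12.52 or less and all WT libraries at 12.55 or more, and 10.9% of all genes were lower without overlap. Within lane 1 Cyp3a13 (-0.38, adjusted p = 0.00447) and Cyp2d26 (-0.26, adjusted p = 0.0168) passed as lower, where 5.58% of all genes did, and Cyp3a11 differed by 0.05 (adjusted p = 0.846). Without double knockout library 3 or 4, Cyp3a11 passed as higher (adjusted p = 0.0448 and 0.0346).

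Side by side, the differences of Rnaseh2b ΔIEC from WT and of the double knockout from Atg16l1 ΔIEC were 2.17 and 0.08 for Cyp3a11. They were 1.69 and -0.31 for Cyp2b10, 1.26 and -0.45 for Cyp3a25, and 0.38 and -0.79 for Nr1i3. The backgrounds are not matched: Atg16l1 had a mean log2 level of 8.39 in the double knockout and 6.92 in Atg16l1 ΔIEC. Rnaseh2b was at 7.81 in the double knockout and 7.18 in Rnaseh2b ΔIEC. The difference of the differences was negative for all 10 genes, from -0.09 for Cyp2c65 to -2.09 for Cyp3a11 (SE 0.38). All 10 genes were lower, without overlap, in the double knockout than in Rnaseh2b ΔIEC, where 25.8% of all genes were, and for Cyp3a11 that difference was -1.56 (SE 0.30), or -0.999 within lane 2. These values use the libraries that chose the genes and were not tested. With lane as a covariate the Cyp3a11 difference of the differences was -0.41.

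Within a genotype the set also followed the Ddx3y split. In WT, 9 of the 10 genes were higher in the Ddx3y-high pair without overlap, with Cyp3a13 as the exception, where 32.45% of all genes were. In Atg16l1 ΔIEC all 10 were (30.6% of all genes). In Atg16l1/Rnaseh2b ΔIEC 5 were (35.49% of all genes), and 2, Cyp2c65 and Nr1i3, were higher in the Ddx3y-low pair without overlap (33.74% of all genes). The gap for Cyp2b10 was 1.09 in WT, 0.37 in Atg16l1 ΔIEC and 0.93 in the double knockout, and for Cyp3a11 0.44, 0.32 and 1.12. Each pair is 2 libraries of unknown origin, so Ddx3y class and donor cannot be told apart, nor can lane in the double knockout.

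Other genes of xenobiotic metabolism were examined from lists that left out the 10. Of 130 tested, 55 rose and 6 fell in Rnaseh2b ΔIEC against WT, 39 rose and 5 fell in Atg16l1 ΔIEC against WT, 15 rose and 14 fell in Atg16l1/Rnaseh2b ΔIEC against WT, and 7 rose and 40 fell in Atg16l1/Rnaseh2b ΔIEC against Atg16l1 ΔIEC. Over all genes 14.4% rose and 12.3% fell in the first of these comparisons, and 8.73% and 10.4% in the second. The shares were 8.10% and 8.01% in the third, and 12.6% and 12.5% in the fourth. They are the background for the counts of each list below as well. The list medians were 0.20, 0.12, 0.00 and -0.11, where those of all genes were between -0.0023 and 0.0024. When the 2 libraries of each pair were averaged, 0 of the 130 passed by limma in any of these 4 comparisons, and 52, 33, 28 and 41 had an unadjusted p under 0.05. With lane as a covariate 26 passed in Rnaseh2b ΔIEC and 19 in Atg16l1 ΔIEC against WT. Without Rnaseh2b ΔIEC library 1 or 2, 33 and 34 passed in that genotype, and without Atg16l1 ΔIEC library 3, 31 passed in the comparison with the double knockout.

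**Figure D4:**
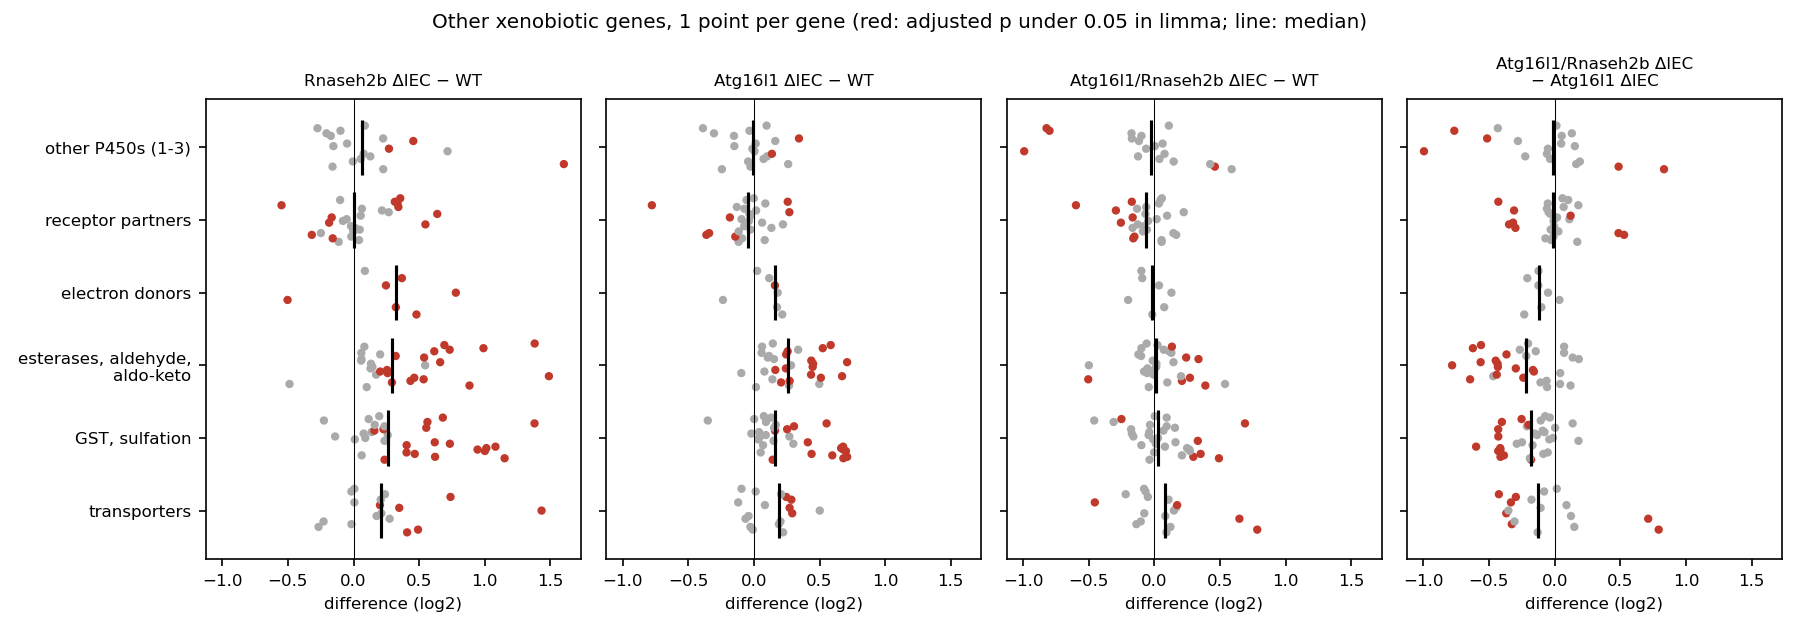
Log2 difference (x axis) of each tested gene in 6 lists of xenobiotic genes, in 4 comparisons; red points passed in limma, and vertical bars are list medians. Conjugation and esterase genes lie mostly to the right of 0 in both single knockouts against WT and mostly to the left in the double knockout against Atg16l1 ΔIEC.

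Of the other P450s of families 1 to 3, 18 could be tested. In Rnaseh2b ΔIEC, 3 rose against WT, led by Cyp2c29 at 1.60 (SE 0.24, adjusted p = 0.000556), with Cyp2j6 at 0.46 and Cyp2d34 at 0.27. Atg16l1 ΔIEC had 2 that rose, Cyp2j9 by 0.34 and Cyp2d10 by 0.14. In Atg16l1/Rnaseh2b ΔIEC against Atg16l1 ΔIEC, 3 fell, among them Cyp2d22 by 0.995 (adjusted p = 0.00981) and Cyp2u1 by 0.76, and 2 rose, Cyp1b1 by 0.49 and Cyp1a1, the aryl hydrocarbon receptor target, by 0.83 (SE 0.23, adjusted p = 0.021). Against WT the double knockout had Cyp2d22 at -0.99, Cyp2w1 at -0.82 and Cyp2u1 at -0.80, all passing. Among 5 aryl hydrocarbon receptor targets, Nqo1, a quinone reductase, rose by 0.50 in Atg16l1 ΔIEC against WT and fell by 0.49 in the double knockout against Atg16l1 ΔIEC.

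Of 26 partners and regulators of the receptors, 6 rose and 5 fell in Rnaseh2b ΔIEC against WT. Nr0b2, a repressor of nuclear receptors, rose by 0.64 (adjusted p = 6.78e-05), Hnf4g by 0.55 and Rxra, the partner of PXR and CAR, by 0.31 (adjusted p = 0.000974). The coactivator Ppargc1a fell in all 3 knockouts against WT, by 0.55 in Rnaseh2b ΔIEC, 0.78 with Atg16l1 deleted and 0.60 in the double knockout. Rxra rose by 0.26 in Atg16l1 ΔIEC against WT and fell by 0.43 (SE 0.04, adjusted p = 4.96e-05) in the double knockout against Atg16l1 ΔIEC, in which Foxa2 and Foxa3 rose by 0.53 and 0.49 and, of the 26, 3 rose and 5 fell. For Hnf4a, a master regulator of hepatic and intestinal genes, the differences lay between -0.08 and 0.00 in these comparisons, and for Ahr between -0.12 and 0.17, none passing.

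Among 7 electron donor genes, 5 rose and 1 fell in Rnaseh2b ΔIEC against WT. Cyb5r3 rose by 0.78 and Cyb5a, cytochrome b5, by 0.48, and Cyb5r1 fell by 0.50. Por differed by 0.09 (SE 0.08, adjusted p = 0.471). In the double knockout against Atg16l1 ΔIEC 0 of the 7 passed in limma.

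Of 29 carboxylesterase, aldehyde and aldo-keto enzyme genes, 17 rose in Rnaseh2b ΔIEC and 15 in Atg16l1 ΔIEC against WT, and none fell in limma. Aldh1a1, a retinal dehydrogenase, rose by 1.49 and 0.67. Fmo5 and Fmo1, flavin monooxygenases, rose by 1.38 and 0.99 in Rnaseh2b ΔIEC. In the double knockout against Atg16l1 ΔIEC 14 of the 29 fell and 0 rose in limma, with Ces1d, a carboxylesterase, at -0.78, Akr1c14 at -0.64 and Fmo1 at -0.62. Of 31 glutathione and sulfate conjugation genes, 18 rose in Rnaseh2b ΔIEC and 14 in Atg16l1 ΔIEC against WT, and 12 fell in the double knockout against Atg16l1 ΔIEC. Papss2, which makes the sulfate donor, rose by 1.38 in Rnaseh2b ΔIEC, and the glutathione transferase Gsta1 by 1.15 there, by 0.68 in Atg16l1 ΔIEC and by 0.49 in the double knockout. Gstm4 fell by 0.60 and Mgst1 by 0.43 in the double knockout against Atg16l1 ΔIEC.

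Of 17 transporters, 6 rose in Rnaseh2b ΔIEC against WT, among them the peptide transporter Slc15a1 by 1.43, Slc47a1 by 0.74 and the efflux pump genes Abcb1b by 0.49 and Abcb1a by 0.41. In the double knockout against Atg16l1 ΔIEC 2 of the 17 rose and 5 fell, with Slco2b1, an organic anion carrier, at -0.42, the efflux pump genes Abcg2 and Abcc2 at -0.37 and -0.33, Slc22a4 at -0.33 and Slc47a1 at -0.30. Abcb1b rose in the double knockout by 0.78 against WT and 0.79 against Atg16l1 ΔIEC (adjusted p = 6.2e-05), and Abcc4 by 0.65 and 0.71, while Abcb1a differed by -0.13 (adjusted p = 0.4) against Atg16l1 ΔIEC. Of 15 textbook PXR or CAR targets outside the set, which overlap the lists above, 9 rose in Rnaseh2b ΔIEC and 6 in Atg16l1 ΔIEC against WT. In the double knockout against Atg16l1 ΔIEC 7 fell. Over all genes 14.4% and 8.73% rose in the first 2 comparisons, and 12.5% fell in the last.

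The genes whose levels ran most like Cyp3a11 over the 14 libraries were Cyp2c29 (Pearson r = 0.977), Hsd17b6 (0.972), Mep1b (0.967), Nipsnap1 (0.965) and Trim38 (0.964). Of the set, Cyp2b10 had an r of 0.92, Nr1i2 of 0.86, Cyp3a25 of 0.85 and Nr1i3 of 0.20. These libraries share genotypes and pairs, and the values are a description.

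Reads of 50 bases can fit more than 1 gene. Of the 50-base stretches in the principal transcript, 14.8% in Cyp3a11, 26.8% in Cyp3a25, 20.6% in Cyp2c65 and 24.0% in Cyp2c66 occur in another gene, so values of the last 2, which share most of theirs, are uncertain between them. Cyp3a11 shares with Cyp3a41a and Cyp3a44, whose log2 levels were at most -0.11 in every library, and Cyp3a25 with Cyp3a59, which was between 5.08 and 5.50. Nr1i3 overlaps Tomm40l, a gene on the opposite strand, over 47.8% of its stretches, and whether the counting used strand is not given in the sources used here. Tomm40l was at 9.98 ± 0.02 in Atg16l1 ΔIEC and 10.20 ± 0.04 in double knockout organoids (n = 4 each), higher in the double knockout where Nr1i3 was lower.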

How the data were processed

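Total RNA of untreated small intestinal organoids (14 libraries) was sequenced by the authors as 50-base single reads from stranded mRNA libraries. Per the labels and the study's methods, reads were trimmed with cutadapt, aligned with TopHat2 to GRCm38, counted with HTSeq and analysed with DESeq2. The deposited table of 18781 genes holds log2 values whose transformation is not named; low genes hardly vary between libraries, their changes are understated, and depth is unknown. The 10 genes and all lists were chosen with earlier results of these data known. The planned test had assumed linear normalized values, so log2 values were tested as deposited.

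limma 3.58.1 in R 4.3.3 (lmFit, contrasts.fit, eBayes with a mean trend) was fitted to all 14 libraries, with 1 mean per genotype, and was tested on simulated data. Benjamini-Hochberg adjustment at 0.05 was over the 12802 genes with a mean log2 value of at least 3.32, the log2 of 10. Genes passing that threshold are said to rise, fall or pass. No contrast that includes Rnaseh2b ΔIEC was tested for the 10 genes, but the residual variance behind every test was pooled over all 4 genotypes, Rnaseh2b ΔIEC included. Outside the set, named genes were the 3 with the largest change among those passing per list and comparison, plus Rxra, Por, Ahr, Hnf4a and Abcb1a. Slc22a4, Abcc2, Abcg2 and Slc47a1 were named in the double knockout against Atg16l1 ΔIEC after their values were seen. Likeness to Cyp3a11 was the Pearson r, top 5 genes. Coordinates and transcript lengths are from GENCODE M21, promoters from RefSeq (GRCm38.p6), and symbols matched 99.7% of identifiers. Figures were drawn with matplotlib 3.10.9 in Python 3.11.15.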

Additional observations from a re-analysis of the deposited data

Results flagged for a closer look

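One library lay far from the other 3 of its genotype: Cyp2d26 was at 12.82 in Atg16l1/Rnaseh2b ΔIEC library 2, with a gap of 0.86 of the range of the group. Among 30 gene and genotype groups checked, chance marks about 1 in 20.

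Several differences pointed opposite ways in every library of the Ddx3y-high and the Ddx3y-low pairs, and the contrast between the pairs was not tested. How many of all genes do the same was not counted, so these cases may be common. For Cyp3a11 the double knockout minus Atg16l1 ΔIEC was 0.47 and -0.32. For Cyp3a13 Atg16l1 ΔIEC minus WT was 0.20 and -0.15, and for Cyp2c55 0.31 in Ddx3y-low and -0.13 in Ddx3y-high libraries. For the double knockout minus WT the values in Ddx3y-high and Ddx3y-low libraries were -0.28 and 0.30 for Cyp2c55, -0.25 and 0.27 for Cyp2c65, and -0.38 and 0.24 for Cyp2c66.

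Nr1i3 was 0.38 higher in Rnaseh2b ΔIEC than in WT and differed by -0.79 between the double knockout and Atg16l1 ΔIEC, each without overlap of libraries. That contrast of the 2 effects uses the libraries that chose the genes and was not tested.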

How the results depend on the processing

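Depth is unknown, pairs of libraries deviate together, and lane follows genotype. Pseudocounts of 1 and 5, other scalings, filters and a fit without a mean trend changed no count of the set past the threshold except the absence of a filter, under which 1 of the 10 was lower in the double knockout against Atg16l1 ΔIEC. Causes were not tested.

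In that comparison, called lower (2) and higher (0) became 1 and 1 with lane as a covariate and within lane 2, 0 lower with only the groups compared and with paired libraries averaged (1 at an unadjusted p under 0.05), 4 lower with Ddx3y class as a covariate, and 5 lower and 1 higher with lane and Ddx3y class. The last 2 settings were chosen after seeing the data. For most settings in this and the next paragraph the share of all genes passing is not given, so the counts have no background. Leaving out 1 library gave 0 to 3 lower and 0 higher. Same-numbered libraries of different genotypes did not deviate together (correlations of -0.50 to 0.44, median -0.05, 18 pairs), so the numbers do not pair them; with the replicate number as a block 1 was lower, Nr1i3 (-0.79), and Cyp3a13 had an adjusted p of 0.057.

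In Atg16l1 ΔIEC against WT, called higher (0) became 4 with Ddx3y class, 5 with lane and Ddx3y class, 1 with only the groups compared and 0 to 2 without 1 library. In the double knockout against WT, 1 was higher and 1 lower with Ddx3y class, with or without lane, 1 lower with lane, 2 lower within lane 1, and 0 to 1 in each direction without 1 library. For the 130 other genes, the counts were 61, 44, 29 and 47 (Rnaseh2b ΔIEC, Atg16l1 ΔIEC and double knockout against WT, double knockout against Atg16l1 ΔIEC). With paired libraries averaged, all but the first became 0 in limma (33, 28 and 41 at an unadjusted p under 0.05). Rnaseh2b ΔIEC was then left with 1 value. With lane the first 2 were 26 and 19, and with lane and Ddx3y class the last was 76. Without 1 library they were 33 to 66, 30 to 46, 20 to 32 and 31 to 54.

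Fitted differences changed sign as follows. With lane, in Atg16l1 ΔIEC against WT, Cyp2b10 was -0.42, Cyp2c65 0.0699, Cyp2d26 -0.11, Cyp3a11 -0.58 and Cyp3a13 -0.23. With lane or within 1 lane, Cyp2b10 was 0.16 in the double knockout against Atg16l1 ΔIEC and -0.26 against WT, and Cyp3a25 -0.0419 against WT. With lane and Ddx3y class, Cyp2c65 was 0.34, Cyp3a11 -0.21 and Cyp3a13 -0.11 in Atg16l1 ΔIEC against WT, Cyp2c65 -0.13 in the double knockout against Atg16l1 ΔIEC, and Cyp2c66 0.15 and Nr1i3 0.10 in the double knockout against WT. Leaving out 1 library at a time turned some differences near 0. In Atg16l1 ΔIEC against WT the ranges were -0.0143 to 0.204 for Cyp2c55, -0.145 to 0.0144 for Cyp2c65, -0.0021 to 0.257 for Cyp2c66 and -0.0377 to 0.107 for Cyp3a13. In the double knockout against WT they were -0.0963 to 0.122 for Cyp2c55, -0.0675 to 0.0922 for Cyp2c65 and -0.198 to 0.0619 for Cyp2c66. Cyp3a11 ranged from -0.119 to 0.272 in the double knockout against Atg16l1 ΔIEC.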

Other observations

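P450s of families 4 and above, which act mainly on fatty acids, sterols and vitamins, were not part of the lists above. Of 15 tested, 3 rose and 2 fell in Rnaseh2b ΔIEC against WT (14.4% and 12.3% of all genes). Cyp4b1 rose by 0.95 (adjusted p = 0.000205), the sterol hydroxylase gene Cyp27a1 by 0.87 and Cyp4f14 by 0.66. In the double knockout against Atg16l1 ΔIEC 6 of the 15 fell and 1 rose (12.5% and 12.6% of all genes). Cyp4f40 was at -0.60 (adjusted p = 0.00259 in limma), Cyp4f16 and Cyp4f14 at -0.57 and Cyp39a1, an oxysterol hydroxylase of bile acid synthesis, at -0.44. Cyp27a1 rose against WT in all 3 knockouts, by 0.30 in Atg16l1 ΔIEC and 0.41 in the double knockout. These genes were named after their values were seen.

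Markers of other cell types also differed between the double knockout and Atg16l1 ΔIEC. All 8 goblet cell markers rose, with a median of 0.60. Their mean log2 level was 11.52 to 11.81 in WT, 11.04 to 11.27 in Atg16l1 ΔIEC and 11.65 to 11.96 in the double knockout. Of the stem cell and Paneth cell markers, 7 of 10 and 6 of 10 rose, with medians of 0.42 and 0.56. Of 15 enterocyte markers 5 fell, with a median of -0.51. The enteroendocrine markers Neurog3, Chga, Gip and Chgb rose, by 0.94, 0.72, 0.68 and 0.66. The rest of the 10 enteroendocrine markers did not pass, nor did any of 7 tuft cell markers. Over all genes 12.6% rose and 12.5% fell. In bulk RNA, cell numbers and RNA per cell cannot be told apart.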
